A study of Mus musculus with 16 samples.

Results

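The comparison set the 2 BALB/c libraries of DBA-sorted liver cells against the 2 C57BL/6 libraries of the same sort, which are 4 of the 16 libraries of the series. The members were taken from the raw count table by strain, population and genotype label, with no measured value used. C57BL/6 wild type, C57BL/6 Ift88Orpk, BALB/c wild type and BALB/c Ift88Orpk mice, all 4 weeks old, gave 1 library each. The other 12 libraries hold Ly6Chi macrophages, Ly6Clo macrophages and neutrophils of the same strains and genotypes. Each library was a pool of RNA from 6 to 8 mice with the sexes in equal number per the labels, so the spread between single mice was not measured. No strain and genotype combination was repeated, and the 2 genotypes served as the replicates of a strain (2 against 2) in a model with a term for genotype. P-values therefore measure spread between libraries only. That spread was estimated in 1 fit of all 16 libraries, the leukocyte ones included, with 4 residual degrees of freedom.

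DBA is Dolichos biflorus agglutinin, a plant lectin used to catch the epithelial cells of the bile duct, the cholangiocytes. Ift88 codes for a carrier protein of intraflagellar transport, which builds the primary cilium, and Orpk is a hypomorphic allele of it that causes cystic disease of liver and kidney in mice. C57BL/6 and BALB/c are inbred strains that differ at many loci of innate immunity, among them clustered families of interferon-induced genes that have gained and lost members during mouse evolution. The Ifi200 genes code for proteins that bind DNA in the nucleus and cytosol. The Trim5, Trim12, Trim30 and Trim34 genes code for ubiquitin ligases related to the primate retroviral restriction factor TRIM5. Processed pseudogenes are copies of a messenger RNA that were written back into the genome, and their reads can be told from those of the source gene only at the bases where the copies differ.

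Such near-identical pairs are shown first, because several of the largest strain differences lay in rows of this kind. Each line gives a stretch of 75 bases from the GENCODE transcript on the gene's own strand (GRCm38), with the bases that differ within the pair in capitals. Gm15772 (chr5:3236431-3236868, plus strand) and Rpl26 (chr11:68901583-68906989, plus strand) shared 436 of 438 aligned bases and differed at 1 of the bases shown. Gm13394 (chr2:28933610-28934609, minus strand) and Gapdh (chr6:125161715-125166467, minus strand) shared 999 of 1000. Tpm3-rs7 (chr14:113314608-113316754, plus strand) and Tpm3 (chr3:90072649-90100902, plus strand) shared 2089 of 2108. Trim34b (chr7:104329471-104336909, plus strand) and Trim34a (chr7:104244457-104262234, plus strand) shared 1803 of 1827.
Gm15772: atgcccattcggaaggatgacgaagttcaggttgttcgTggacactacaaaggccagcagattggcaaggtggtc
Rpl26: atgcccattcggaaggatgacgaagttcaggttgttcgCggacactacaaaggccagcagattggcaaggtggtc
Gm13394: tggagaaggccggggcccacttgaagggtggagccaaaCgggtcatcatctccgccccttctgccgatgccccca
Gapdh: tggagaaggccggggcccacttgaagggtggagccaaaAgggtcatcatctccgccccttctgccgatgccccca
Tpm3-rs7: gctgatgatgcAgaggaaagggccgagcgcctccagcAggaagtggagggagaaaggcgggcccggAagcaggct
Tpm3: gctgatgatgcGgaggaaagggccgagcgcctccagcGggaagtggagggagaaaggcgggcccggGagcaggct
Trim34b: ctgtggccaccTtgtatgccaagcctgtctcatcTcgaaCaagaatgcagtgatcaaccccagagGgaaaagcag
Trim34a: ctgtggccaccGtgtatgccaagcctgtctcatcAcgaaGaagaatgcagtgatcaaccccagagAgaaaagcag

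Label checks came before the comparison. Reads counted in genes totalled 13796476 to 19856815 per library, 53.68 to 57.28% of the counted reads, and 8.71 to 11.18% were not uniquely aligned. Levels are given in counts per 1000000 of the library size (CPM), where the library size is the gene counts scaled by the TMM factor. Percentages of gene counts are unscaled. Where 2 values are given for a strain, the wild type library stands first and the Ift88Orpk library second. Ift88 was counted at 8.78 and 7.63 CPM in C57BL/6 and at 8.59 and 4.62 CPM in BALB/c, and these counts cannot tell the Orpk allele from the wild type one. Xist, the RNA of the inactive X chromosome, was at 842 and 240 CPM in C57BL/6 and at 173 and 655 CPM in BALB/c, and the Y-linked Ddx3y at 22.5 and 62.9 against 35.6 and 31.3 CPM, so that neither separated the strains. Within C57BL/6 the library with more Xist had less Ddx3y and less Uty (10.6 and 52.8 CPM), which goes against equal sexes in every pool, and the part of sex in the results was not tested. The single non-coding row Gm26917 took 2.33 and 2.05% of gene counts in C57BL/6 and 13.2 and 13.4% in BALB/c (log2 fold change 2.71 ± 0.55, SE, adjusted p = 0.134).

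All 14 cholangiocyte markers listed were tested, and the duct keratin Krt19 was at 246 and 107 CPM in C57BL/6 and at 88.1 and 109 CPM in BALB/c. Summed over the list, cholangiocyte markers reached 713 and 372 CPM per kb of exons in C57BL/6 and 352 and 494 in BALB/c. The 14 sinusoidal endothelial markers summed to 3694 and 3973 CPM per kb in C57BL/6 and to 4325 and 2757 in BALB/c, above the cholangiocyte markers in every library. The 14 hepatocyte markers were also above them, at 2092, 1435, 1158 and 1220 CPM per kb in the same order. The libraries are therefore called DBA-sorted cells here and not cholangiocytes. The BALB/c Ift88Orpk library stood apart: its 12 neutrophil markers summed to 175 CPM per kb, against 13.5 and 15.1 in C57BL/6 and 4.31 in BALB/c wild type, and its 14 stellate cell and fibroblast markers to 1195 against 232 to 518. In the neutrophil libraries the neutrophil markers summed to 13438 to 24199 CPM per kb. The neutrophil markers Ly6g and Stfa2l1 were at 0 in the other three DBA-sorted libraries. In pooled sorted cells, fewer cells of a type and less RNA per cell cannot be told apart. None of the 157 markers on the 14 lists passed the test in edgeR (5 higher and 4 lower at an unadjusted p under 0.05, and 2 higher and 1 lower by DESeq2).

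**Figure D1:**
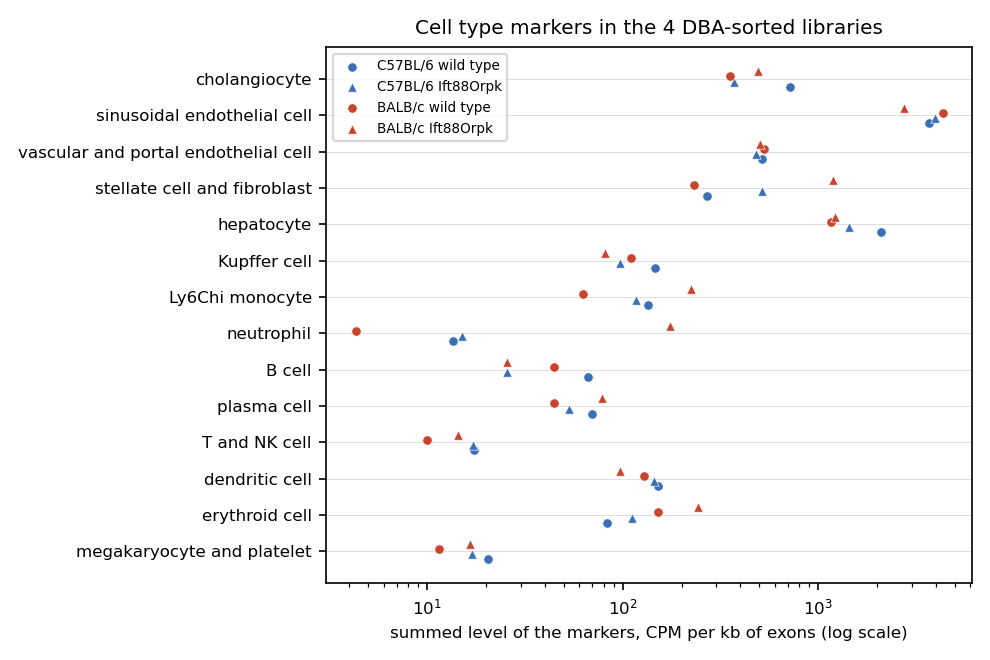
Summed level of the markers of each cell type in the 4 DBA-sorted libraries, in CPM per kb of exons on a log scale, with C57BL/6 in blue and BALB/c in red, wild type as circles and Ift88Orpk as triangles. Sinusoidal endothelial markers lie above cholangiocyte markers in all 4 libraries, and the neutrophil markers of BALB/c Ift88Orpk, at 175, lie apart from the other three.

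Of 21534 genes tested, 64 (0.297%) passed an adjusted p of 0.05, 37 of them higher in BALB/c (0.172%) and 27 lower (0.125%). The called genes included members of the Ifi200 and Trim families, Pla2g7 and Ackr1, and copies of ribosomal protein and other housekeeping genes. The 64 had the same sign in the wild type pair and in the Ift88Orpk pair, which a call in a model with both pairs nearly requires. Over all genes tested, both libraries of 1 strain lay outside those of the other for 36.8% (16.6% higher and 20.2% lower in BALB/c), and the median log2 fold change was -0.020. At an unadjusted p under 0.05 there were 2000 genes (9.29%, with 4.01% higher and 5.28% lower). Protein-coding genes gave 21 higher (0.137% of 15294 tested) and 24 lower (0.157%). Pseudogene-like rows gave 12 higher (0.85% of 1412 tested) and 0 lower in edgeR, where 87 were higher and 84 lower at an unadjusted p under 0.05, and 42 higher and 25 lower by DESeq2. Rows of other annotated types, among them non-coding RNAs, gave 4 higher (0.084% of 4764 tested) and 3 lower (0.063%). The 64 tested rows that matched no annotation gave 0 in either direction.

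**Figure D2:**
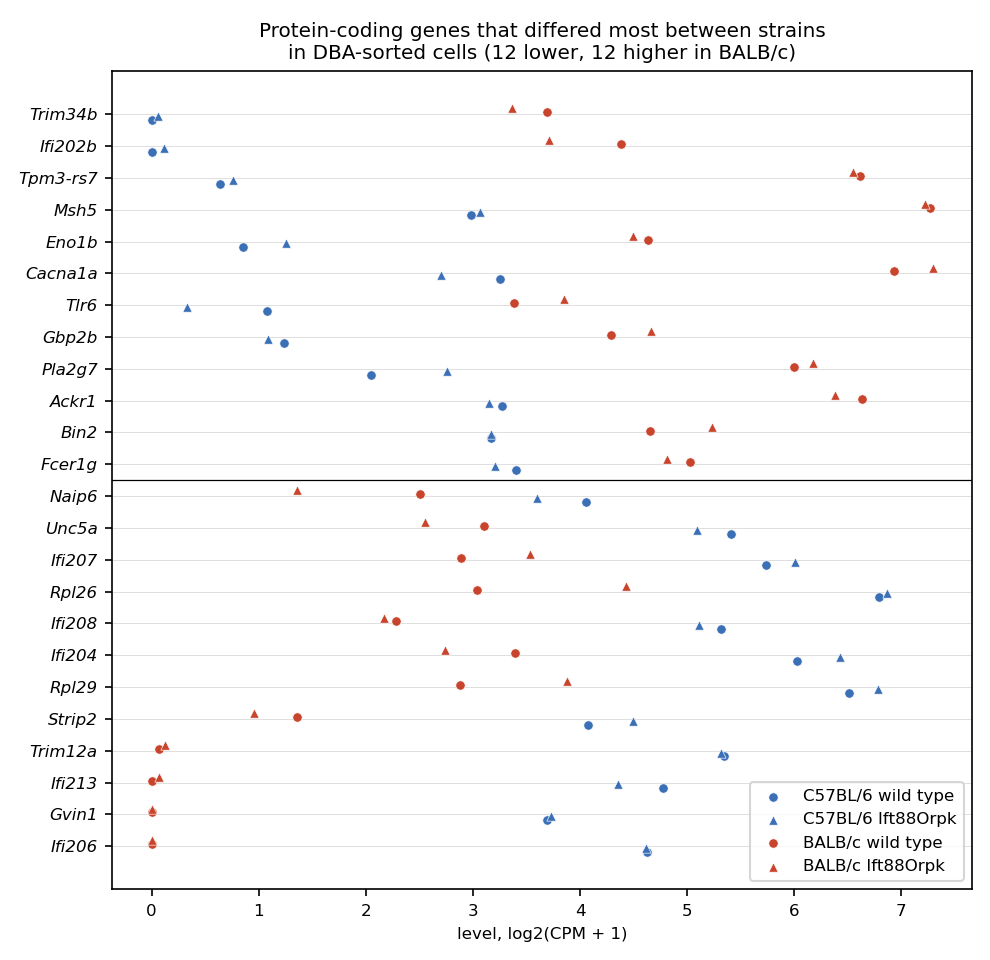
Level of the 12 protein-coding genes most raised and the 12 most lowered in BALB/c, as log2(CPM + 1), in each of the 4 DBA-sorted libraries, with strains by colour and genotypes by marker shape. The rule that named the 24 genes required strains that do not overlap, as 36.8% of all genes tested do not.

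Several called genes lay side by side. The Ifi200 cluster on chromosome 1 held the largest group: 7 called genes lay between bases 173331886 and 173982744, where 19 genes were tested. Of the 13 Ifi200 family members tested, 5 were lower in BALB/c and 1 was higher, and the family's median log2 fold change was -2.10. Ifi206 (chr1:173468485-173491041, minus strand) was at 23.7 and 23.6 CPM in C57BL/6 and at 0 in both BALB/c libraries, at least 324-fold lower with a floor of 3 counts over the strain (adjusted p = 0.00132). Ifi213 (chr1:173566283-173599274, minus strand) was at 26.4 and 19.5 CPM in C57BL/6 and was represented by 1 count in BALB/c, a ratio of 917 with a 95% counting interval of 164 to 36270 (adjusted p = 0.0135). Counting intervals throughout cover counting error only, since the reads carry no molecular identifiers. Both genes were thus present in every C57BL/6 library and at or near 0 in BALB/c.

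A further 3 members of the cluster were lower in BALB/c without being absent. Ifi204, one of the most studied mouse members, was at 64.1 and 85.1 CPM in C57BL/6 and at 9.50 and 5.70 CPM in BALB/c, a log2 fold change of -3.32 ± 0.32 (adjusted p = 0.00714). Ifi208 was at 38.9 and 33.6 against 3.87 and 3.49 CPM (-3.30 ± 0.37, adjusted p = 0.0135). Ifi207 was at 52.2 and 63.2 against 6.43 and 10.6 CPM (-2.80 ± 0.31, adjusted p = 0.0135). Neighbouring members on the same stretch did not follow: Ifi203 was at 175 and 195 CPM in C57BL/6 and at 194 and 192 CPM in BALB/c (0.06 ± 0.21). Mndal was at 86.3 and 95.7 against 47.0 and 58.2 CPM (-0.80 ± 0.18, adjusted p = 0.166). Aim2, the family's inflammasome sensor, was at 5.56 and 5.13 against 8.19 and 11.0 CPM and did not pass either (0.83 ± 0.33, adjusted p = 0.486).

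Ifi202b (chr1:173962568-173982744, minus strand), a member without the pyrin domain and known from other work as expressed in some strains and not in C57BL/6, was the one that was higher in BALB/c. It had 0 and 0.0863 CPM in C57BL/6, 2 counts in all, and 19.8 and 12.1 CPM in BALB/c, a ratio of 311 with a counting interval of 85.8 to 2574 (adjusted p = 0.0142). Ifi206, Ifi213 and Ifi208 share long stretches at 96.0 to 97.1% identity, and Ifi204 and Ifi211 share 1363 bases at 96.9%, so that counts within the family could be divided between rows. Ifi206 and Ifi204 kept an adjusted p under 0.05 whichever of the 4 libraries was left out (0.00764 to 0.0348). For Ifi207, Ifi208 and Ifi213 each library left out raised it above 0.05 (0.0661 to 0.112), and for Ifi202b leaving out the BALB/c or the C57BL/6 wild type library gave 0.0580 and 0.0530. Here and below, leaving out 1 library leaves the strain difference to the pair of the other genotype, 1 library against 1. Leaving out either library of a genotype leaves the same pair, so these are 2 checks and not 4. On the same stretch of chromosome 1 lay Ackr1, described further on.

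**Figure D3:**
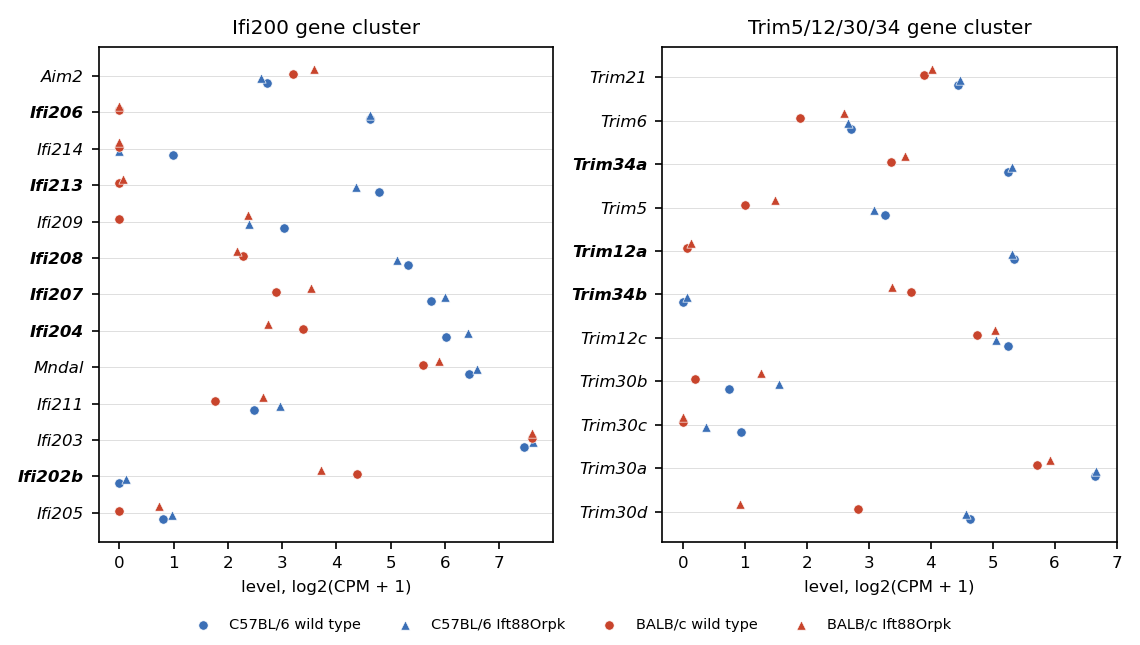
Level of each tested member of the Ifi200 cluster on chromosome 1 (left) and of the Trim5, Trim12, Trim30 and Trim34 cluster on chromosome 7 (right), as log2(CPM + 1) in the 4 DBA-sorted libraries, in their order along the chromosome, with the called genes in bold. Lower and higher members stand beside members at like levels in both strains, such as Ifi203 and Trim12c.

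The Trim cluster on chromosome 7 showed the same mixture. Of 11 members tested, 2 were lower in BALB/c and 1 was higher, and the median log2 fold change was -0.92. Trim12a (chr7:104299894-104315466, minus strand) was at 39.7 and 38.9 CPM in C57BL/6 and at 0.0502 and 0.0943 CPM in BALB/c, 3 counts in all, a ratio of 538 with a counting interval of 184 to 2610 (adjusted p = 0.0135). Its close relative Trim12c was at 37.1 and 32.1 against 26.0 and 32.0 CPM (-0.26 ± 0.27). Trim34a was at 37.1 and 38.7 CPM in C57BL/6 and at 9.24 and 11.0 CPM in BALB/c (-1.91 ± 0.24, adjusted p = 0.0220). Trim34b, whose sequence is set beside that of Trim34a above, moved the other way, with 1 count in C57BL/6 and 11.9 and 9.33 CPM in BALB/c (ratio 415, counting interval 74.2 to 16446, adjusted p = 0.00706). With the counts of both rows summed, Trim34a and Trim34b together stood at 37.1 and 38.7 CPM in C57BL/6 and at 21.1 and 20.4 CPM in BALB/c (-0.87 ± 0.22, adjusted p = 0.259). Trim30d, at 23.7 and 22.7 against 6.08 and 0.895 CPM, and Trim5, at 8.59 and 7.46 against 1.0 and 1.79 CPM, did not pass (adjusted p = 0.103 and 0.151). Leaving out any 1 library raised the adjusted p of Trim12a to between 0.0809 and 0.104 and that of Trim34a to between 0.100 and 0.142, while that of Trim34b stayed at 0.0419 to 0.0494.

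Other interferon-induced genes were called singly. Gvin1 (chr7:106156556-106215326, minus strand), a very large interferon-induced GTPase, was at 11.9 and 12.3 CPM in C57BL/6 and at 0 in both BALB/c libraries, at least 166-fold lower (adjusted p = 0.0151). Its transcript is identical over 9005 bases to that of Gm4070, which was at 11.7 and 20.3 against 4.32 and 7.35 CPM (adjusted p = 0.458), so the division of reads between the 2 rows is uncertain. Leaving out any 1 library left Gvin1 just short of the threshold, at 0.0512 to 0.0559. Gm5431, which overlaps no other annotated gene but shares 2961 bases at 95.7% identity with 9930111J21Rik1, was lower in BALB/c (21.6 and 24.2 against 7.39 and 7.92 CPM, adjusted p = 0.0238). Ifit3, a cytosolic antiviral effector, was at 44.4 and 49.0 against 15.8 and 9.61 CPM (-1.92 ± 0.27, adjusted p = 0.0280, and 0.0486 to 0.158 with a library left out, past the threshold only without C57BL/6 wild type). Gbp2b, a guanylate-binding protein of the interferon response, was higher in BALB/c, at 1.36 and 1.12 against 18.6 and 24.4 CPM (4.11 ± 0.41, adjusted p = 0.00888). Without either Ift88Orpk library its adjusted p was 0.0704 and 0.0715. Ifi44l was at 0 in both C57BL/6 libraries and at 11.9 and 4.95 CPM in BALB/c, at least 109-fold higher (adjusted p = 0.0277). It was not called by DESeq2, nor with any 1 library left out.

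The wider interferon lists were mostly negative without being called. Of 32 interferon-stimulated genes tested, Ifit3 alone was called, 28 had a negative log2 fold change and the median was -0.54, beside -0.020 over all genes. At an unadjusted p under 0.05, 10 of them were lower and 1 was higher. Isg15, the ubiquitin-like modifier of the response, was at 14.7 and 20.7 against 7.84 and 8.34 CPM (-1.11 ± 0.32, adjusted p = 0.316). Among 11 guanylate-binding proteins Gbp2b alone was called and the median was -0.66. Among 8 immunity-related GTPases Gvin1 alone was called and the median was -0.89, with Irgm2 at 93.5 and 103 against 37.5 and 45.8 CPM (adjusted p = 0.102).

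The start sites of 3 of these genes are shown with the interferon-stimulated response element, searched as GAAA, any 2 bases and GAAA on both strands in 250 bases before to 50 after the start and drawn in capitals. The windows are 150 bases upstream, from RefSeq on GRCm38.p6, on the gene's own strand: Ifi206 at chr1:173491319-173491468 (minus), Ifi202b at chr1:173982845-173982994 (minus) and Gbp2b at chr3:142594697-142594846 (plus).
Ifi206: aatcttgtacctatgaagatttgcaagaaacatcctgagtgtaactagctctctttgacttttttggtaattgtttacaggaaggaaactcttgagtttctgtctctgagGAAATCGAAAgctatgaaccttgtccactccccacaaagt
Ifi202b: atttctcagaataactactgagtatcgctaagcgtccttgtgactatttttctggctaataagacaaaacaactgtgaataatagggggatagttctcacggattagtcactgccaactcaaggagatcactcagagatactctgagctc
Gbp2b: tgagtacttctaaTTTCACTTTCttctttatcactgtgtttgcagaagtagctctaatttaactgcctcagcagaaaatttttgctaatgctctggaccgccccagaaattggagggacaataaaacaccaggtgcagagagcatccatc
A match stood in 1079 of 27025 promoters (3.99%). It stood in 9 of the 12 Ifi200 members that had a window (75%), in 13 of 23 interferon-stimulated genes (56.5%) and in 7 of 11 Trim cluster members (63.6%). Among the called genes it stood in 7 of the 19 lower protein-coding genes with a window (36.8%: Ifi206, Ifi207, Ifi208, Ifi213, Ifit3, Trim12a and Trim34a) and in 2 of the 16 higher ones (12.5%: Gbp2b and Tlr6). Ifi202b had no match in its window. The windows are reference sequence, not sequence of BALB/c.

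Ackr1 and Pla2g7 were both higher in BALB/c. Ackr1 (chr1:173331886-173333750, minus strand), the atypical chemokine receptor known from venular endothelium and red cells, was at 8.65 and 7.89 CPM in C57BL/6 and at 98.2 and 82.4 CPM in BALB/c, a log2 fold change of 3.44 ± 0.43 (adjusted p = 0.0220). It overlaps Cadm3 on the same strand, which was at 11.3 and 4.53 against 8.89 and 1.89 CPM. Leaving out any 1 library gave Ackr1 an adjusted p of 0.113 to 0.186. All 7 erythroid markers had a positive log2 fold change, and they summed to 83.3 and 112 CPM per kb in C57BL/6 and to 151 and 243 in BALB/c, and their part in the Ackr1 difference was not tested. Pla2g7 (chr17:43568098-43612201, plus strand), the secreted phospholipase that breaks down platelet-activating factor, was at 3.15 and 5.78 CPM in C57BL/6 and at 62.9 and 71.3 CPM in BALB/c (3.96 ± 0.27, adjusted p = 0.00132). The strains lay far apart in both genotypes, and the adjusted p stayed at 0.00764 to 0.0263 whichever library was left out.

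Other called genes, set side by side here after their values were seen, are known from blood cells, whose marker lists held no called gene. Tlr6, which pairs with Tlr2 to recognise bacterial lipopeptides, was at 1.11 and 0.259 CPM in C57BL/6 and at 9.44 and 13.4 CPM in BALB/c (4.20 ± 0.54, adjusted p = 0.0220, and 0.0216 to 0.0457 with a library left out). Ccr3, the eotaxin receptor of eosinophils, was at 0 in both C57BL/6 libraries and at 4.37 and 4.85 CPM in BALB/c, at least 60.6-fold higher (adjusted p = 0.0220). Siglecf, a sialic acid receptor of eosinophils, was the reverse, at 8.78 and 9.70 CPM in C57BL/6 and at 0 in BALB/c, at least 128-fold lower (adjusted p = 0.0115). Those 2 eosinophil genes therefore differed in opposite directions. Fcer1g, the shared signalling chain of Fc receptors, was at 9.58 and 8.24 against 31.7 and 27.1 CPM (1.72 ± 0.26, adjusted p = 0.0489). Bin2, a membrane-bending protein of blood cells, was at 7.97 and 7.98 against 24.2 and 36.6 CPM (1.90 ± 0.22, adjusted p = 0.0154). With a library left out the adjusted p was 0.0774 to 0.0884 for Ccr3, 0.0457 to 0.0487 for Siglecf, 0.179 to 0.194 for Fcer1g and 0.0427 to 0.0954 for Bin2, which passed without either wild type library.

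Several called genes at lower levels were highest in the BALB/c Ift88Orpk library, where neutrophil markers were also highest. Il1r2, the decoy receptor of interleukin 1, was at 0.309 and 3.19 CPM in C57BL/6 and at 2.31 and 15.0 CPM in BALB/c (2.43 ± 0.36, adjusted p = 0.0424), so that the strains overlapped across genotypes. The small GTPase gene Arl11 was at 0.247 and 0.302 against 1.0 and 5.14 CPM, and the immunoglobulin-like receptor Gm14548 at 0.0618 and 0.733 against 0.854 and 6.22 CPM. F630028O10Rik, a non-coding row that overlaps Mir223, was at 0.309 and 1.29 against 2.41 and 10.5 CPM, and the non-coding A530013C23Rik at 0.494 and 0.647 against 2.11 and 7.40 CPM. Glipr1 was at 1.36 and 2.93 against 5.02 and 11.2 CPM. In leukocytes Il1r2 ranged from 7.52 to 3690 CPM. None of these genes was called with either Ift88Orpk library left out, that of BALB/c or that of C57BL/6. Either fit leaves the strain difference to the same wild type pair, so the loss cannot be laid to a given library. Il1r2, Gm14548 and Glipr1 were not called with any library left out. The part of the neutrophil markers in these differences was not tested.

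Inflammasome genes moved both ways. Nlrp1b, a sensor known to vary between strains in the response to anthrax lethal toxin, was at 2.60 and 2.11 CPM in C57BL/6 and at 12.4 and 7.35 CPM in BALB/c (2.02 ± 0.24, adjusted p = 0.0160, and 0.0633 to 0.126 with a library left out). Naip6, a receptor for bacterial flagellin, was at 15.6 and 11.1 against 4.67 and 1.56 CPM (-2.25 ± 0.29, adjusted p = 0.0220). It passed without either wild type library and not without either Ift88Orpk library (0.0954 and 0.0966). Its paralog Naip5, with 4398 bases at 96.9% identity, was at 12.8 and 16.2 against 6.08 and 6.69 CPM (-1.17 ± 0.23, adjusted p = 0.113). The lymphoid and myeloid adaptors Hcst and Scimp were low in C57BL/6 (0.865 and 1.16 CPM, and 1.24 and 1.25 CPM) and at 0 in BALB/c, at least 14.3-fold and 17.1-fold lower (adjusted p = 0.0163 and 0.0489). Clec2i, a C-type lectin, was at 1.85 and 0.776 against 0 CPM, at least 16.7-fold lower, and was the single gene called among 20 killer cell lectin-like and Clr receptors. With a library left out these 3 had adjusted p of 0.0486 to 0.135, and Hcst alone passed, without C57BL/6 wild type.

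Cacna1a (chr8:84388440-84640246, plus strand), the pore of P/Q-type calcium channels, was at 8.53 and 5.52 CPM in C57BL/6 and at 121 and 156 CPM in BALB/c (4.32 ± 0.40, adjusted p = 0.00593, and 0.0633 without BALB/c Ift88Orpk). Msh5 (chr17:35028605-35046745, minus strand), a MutS homologue of meiosis that lies in the major histocompatibility region, was at 6.92 and 7.38 against 153 and 148 CPM (4.39 ± 0.37, adjusted p = 0.00380, and 0.0378 to 0.0487 with a library left out). The genotypes of a strain differed little for Msh5 beside the gap between strains. Slc8a1, a sodium and calcium exchanger, was at 5.75 and 9.49 against 15.4 and 23.6 CPM (1.37 ± 0.21, adjusted p = 0.0489). Unc5a, a netrin receptor, was lower in BALB/c, at 41.5 and 33.2 against 7.59 and 4.85 CPM (-2.61 ± 0.35, adjusted p = 0.0238). Strip2 was at 15.8 and 21.6 against 1.56 and 0.943 CPM (-3.91 ± 0.50, adjusted p = 0.0220). Bmx, a Tec-family kinase known from arterial endothelium, was at 9.39 and 9.75 against 0.653 and 1.13 CPM (-3.44 ± 0.46, adjusted p = 0.0238). None of Slc8a1, Unc5a, Strip2 and Bmx passed with any 1 library left out (0.0642 to 0.198). Unc5a overlaps Hk3 on the other strand, and it is not alone in this. Of the 64 called genes, 26 overlap another annotated gene, and 17 do so on the other strand. Pla2g7, Trim12a, Cacna1a and Slc8a1 are among those 17. Whether reads were counted by strand is unknown, and the part of such overlaps in the calls was not tested.

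Abcd2, a peroxisomal transporter of very long-chain fatty acids, was at 2.84 and 3.67 CPM in C57BL/6 and at 0.151 and 0.236 CPM in BALB/c, a log2 fold change of -4.03 ± 0.36 (adjusted p = 0.00484, and 0.0427 to 0.0460 with a library left out). Hopx, a homeodomain-only cofactor, was at 2.22 and 1.21 against 0 CPM, at least 22.3-fold lower, and Fndc9 was at 1.67 and 0.388 against 0 CPM, at least 12.5-fold lower. The remaining non-coding rows were low. Gm43499, Gm37159 and Anxa11os were lower in BALB/c, from 0.518 to 4.64 CPM in C57BL/6, and overlap Tec, Cers6 and Anxa11. Gm44751 was at 0 in C57BL/6 and at 1.91 and 3.02 CPM in BALB/c. Gm7292 was at 0.0618 and 0.0863 CPM against 14.5 and 13.7 CPM, a ratio of 185 with a counting interval of 63.0 to 900. Of these 8 genes, Gm43499 (0.0491 without BALB/c Ift88Orpk), Gm44751 (0.0460 and 0.0427 without either wild type library) and Abcd2 were the ones that passed with some library left out.

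Ribosomal protein genes and copies of housekeeping genes formed the last group, and they are treated apart because reads can pass between near-identical rows. A copy at 95% identity or more over at least 100 bases existed for 11 of the 12 called pseudogene-like rows, for 15 of the 24 lower protein-coding genes and for 8 of the 21 higher ones. The share with a copy among rows that were not called was not measured. Rpl26, a protein of the large ribosomal subunit, was at 110 and 116 CPM in C57BL/6 and at 7.23 and 20.5 CPM in BALB/c (-3.20 ± 0.34, adjusted p = 0.0115). Its copy Gm15772 was at 0.680 and 0.474 CPM in C57BL/6 and at 48.6 and 64.1 CPM in BALB/c (6.61 ± 0.44, adjusted p = 0.00132). Gene and copy thus differed in opposite directions, and the stretch shown above differs between them at 1 base. Summed, they stood at 111 and 116 against 55.8 and 84.6 CPM (-0.72 ± 0.20, adjusted p = 0.302).

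Rplp0, the ribosomal stalk protein, has 3 called copies, all higher in BALB/c. Gm8730 was at 1.55 and 1.25 CPM in C57BL/6 and at 67.3 and 84.6 CPM in BALB/c (5.76 ± 0.33, adjusted p = 0.000835). Gm9625 was at 0.433 and 0.776 against 24 and 35.4 CPM (5.62 ± 0.39, adjusted p = 0.00132), and Gm14165 at 0.309 and 0.173 against 9.39 and 9.0 CPM (5.27 ± 0.67, adjusted p = 0.0220). Rplp0 itself was at 400 and 392 CPM in C57BL/6 and at 182 and 202 CPM in BALB/c, which did not pass (-1.05 ± 0.21, adjusted p = 0.130), and the sum of the 4 rows differed by -0.38 ± 0.21 (adjusted p = 0.665). Tpm3-rs7, the tropomyosin copy whose sequence is printed above, was at 0.556 and 0.690 CPM in C57BL/6 and at 97.0 and 92.9 CPM in BALB/c (7.22 ± 0.37, adjusted p = 0.000617). Tpm3 was at 202 and 239 against 139 and 168 CPM, and the 2 rows summed to 203 and 239 against 236 and 261 CPM (0.17 ± 0.20). Gm13394, the Gapdh copy, was at 0 in C57BL/6 and at 19.5 and 11.5 CPM in BALB/c, at least 202-fold higher (adjusted p = 0.00380). Gapdh, the glycolytic enzyme, was at 165 and 217 against 133 and 183 CPM, and the sum differed by -0.13 ± 0.25.

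**Figure D4:**
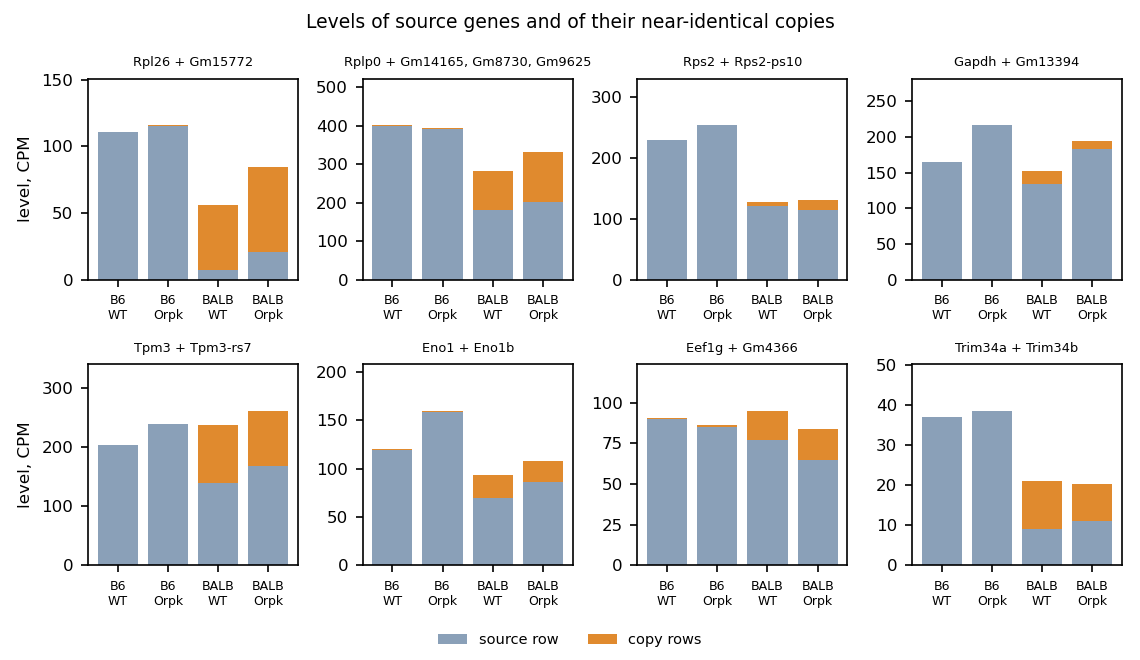
Level in CPM of 8 source genes (grey-blue) and of their called near-identical copies (orange), stacked, in the 4 DBA-sorted libraries. Copy rows are nearly empty in C57BL/6 and filled in BALB/c, where the source rows of Rpl26, Rplp0, Rps2, Tpm3, Eno1 and Trim34a are lower in both libraries than in both C57BL/6 libraries.

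Other copies were also higher in BALB/c, at lower levels, but not every source row was lower. For Eno1 the source row and the sum differed by -0.82 and -0.46 (log2), and for Eef1g by -0.30 and 0.01. The values were -0.61 and -0.46 for Rps7, -1.04 and -0.90 for Rps2, and -0.70 and 0.70 for Hmga1. Pirb and Pira2, source rows of Gm15931 and Gm14548, were positive alone (0.22 and 1.19) and summed (0.77 and 2.06). Eno1b, a copy of the glycolytic enolase gene Eno1, was at 0.803 and 1.38 against 23.9 and 21.5 CPM (4.38 ± 0.37, adjusted p = 0.00380), and Gm4366, a copy of the elongation factor gene Eef1g, at 0.742 and 1.47 against 18.0 and 18.9 CPM (4.10 ± 0.49, adjusted p = 0.0173). Rps2-ps10 had 2 counts in C57BL/6 and 7.54 and 15.6 CPM in BALB/c (ratio 230, counting interval 63.4 to 1906, adjusted p = 0.0114). Gm10499, which shares 281 bases at 96.1% identity with the class I gene H2-D1, had 3 counts in C57BL/6 and 21.0 and 15.3 CPM in BALB/c (ratio 237, counting interval 80.7 to 1151, adjusted p = 0.0135). Hmga1b, a copy of the chromatin gene Hmga1, had 2 counts in C57BL/6 and 3.82 and 7.96 CPM in BALB/c, and Gm6472, a copy of Rps7, was at 0.556 and 0.561 against 7.39 and 8.11 CPM. Gm9522, Gad1-ps and Gm15931, a copy of the receptor gene Pirb, were at 0 in C57BL/6 and at 0.804 to 4.67 CPM in BALB/c. They were not empty in C57BL/6 leukocytes, where Gad1-ps was at 17.3 to 243, Gm15931 at 12.3 to 69.1 and Gm9522 at 0.423 to 6.15 CPM. No leukocyte population called any of these rows. Gad1 itself had no count in any DBA-sorted library. When 14 copies were added to their 12 source rows, an alternative chosen after the values were seen, none of the 12 sums passed, and the counts over all genes became 18 higher and 24 lower. Leaving out a library kept the call of Gm8730, Gm9625, Gm15772, Gm10499, Gm13394, Gm15931, Tpm3-rs7 and Eno1b in every case (0.00764 to 0.0449). Rps2-ps10 passed only without C57BL/6 wild type (0.0474), Gad1-ps only without either wild type library (0.0299 and 0.0264), and Gm14165, Gm4366, Gm6472, Gm9522, Gm14548 and Hmga1b in no case (0.0678 to 0.251).

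Not every ribosomal call had a called copy. Rpl29 was at 90.4 and 109 CPM in C57BL/6 and at 6.38 and 13.7 CPM in BALB/c (-3.40 ± 0.27, adjusted p = 0.00365, and 0.00929 to 0.0322 with a library left out). Rpl35a was at 64.2 and 73.8 against 18.7 and 30.5 CPM (-1.53 ± 0.20, adjusted p = 0.0244, and 0.0666 to 0.169 with a library left out). Transcripts of 34 genes matched Rpl29 and those of 18 matched Rpl35a by the rule above, and no copy of either was called. Of 40 other cytosolic ribosomal protein genes none was called in edgeR (9 lower and 0 higher at an unadjusted p under 0.05, 5 lower by DESeq2), 38 had a negative log2 fold change and the median was -0.29. Rps2 was at 229 and 254 against 120 and 115 CPM (-1.04 ± 0.20, adjusted p = 0.121).

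The leukocyte libraries showed which strain differences recurred in other cells. The populations come from the same strains and genotypes, may share mice, and entered the same fit. The gene filter and the spread behind the 64 calls thus used the leukocyte libraries too, and recurrence there is not independent of the calls. Of the 64 genes, 26 were also called with the same sign in Ly6Chi cells (0.334% of all genes called there), 25 in Ly6Clo cells (0.306%) and 31 in neutrophils (1.34%). All 3 leukocyte populations called 23 of them, and none called 29. The shares of all genes tested that were called in all 3 or in none were not measured, nor were those by class. The sign was the same in all 3 for 44 of the 64, beside 26.4% of all genes tested. Among pseudogene-like rows 7 of 12 were called in all 3, and among protein-coding genes 15 of 45. Ifi206, Ifi213, Trim12a, Gvin1, Rpl26 and Rpl29 were lower in BALB/c in every population, and Ifi202b, Trim34b, Gbp2b, Msh5, Eno1b and Tpm3-rs7 higher. Ifi204, Ifi207 and Ifi208, in contrast, were called lower in neutrophils (-4.08, -2.78 and -3.18, adjusted p = 0.00337, 0.00910 and 0.0111) and not in either macrophage population, where their log2 fold changes ranged from -0.24 to -1.67. Slc8a1 was the single gene called in the opposite direction, lower in BALB/c neutrophils (-1.35, adjusted p = 0.0211).

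**Figure D5:**
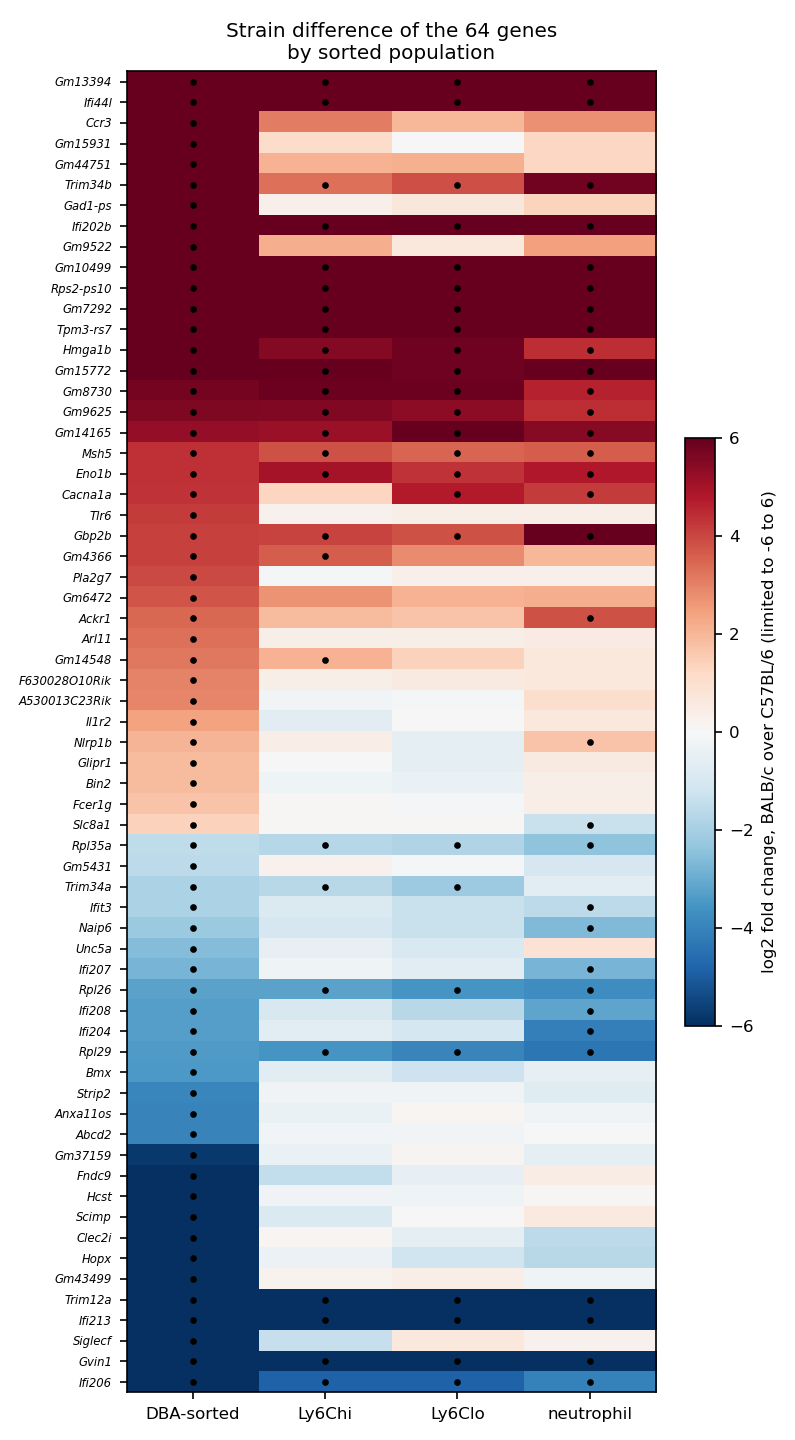
Log2 fold change of BALB/c over C57BL/6 for the 64 called genes in DBA-sorted cells and in the 3 leukocyte populations, with red for higher and blue for lower in BALB/c, colours limited to -6 and 6, and a black dot where the adjusted p was under 0.05. Of the 64 genes, 23 carry dots in all 4 columns and 29 in the first column only.

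The difference itself, the strain effect in DBA-sorted cells minus the mean effect of the 3 leukocyte populations, passed for 3 of 21534 genes (0.0139%), with 1553 (7.21%) at an unadjusted p under 0.05. Pla2g7 differed by 3.77 ± 0.30 (adjusted p = 0.0133): it was at 104 to 685 CPM in C57BL/6 leukocytes and at 137 to 864 CPM in BALB/c leukocytes, with log2 fold changes of -0.07, 0.31 and 0.31. Abcd2 differed by -3.92 ± 0.38 (adjusted p = 0.0388), with leukocyte levels of 40.8 to 124 CPM in C57BL/6 and 28.8 to 131 CPM in BALB/c. Neither gene was called in any of the 3 leukocyte populations. Ifi44, an interferon-induced gene beside Ifi44l, differed by -4.44 ± 0.36 (adjusted p = 0.0133). It was at 5.96, 8.96, 7.50 and 8.16 CPM in C57BL/6 macrophages and at 94.3 to 377 CPM in BALB/c macrophages, with log2 fold changes of 5.20 in Ly6Chi and 3.81 in Ly6Clo cells (adjusted p = 0.00116 and 0.00406). In DBA-sorted cells Ifi44 was at 87.1 and 74.0 CPM in C57BL/6 and at 60.0 and 25.3 CPM in BALB/c (-1.04 ± 0.29, adjusted p = 0.298). Without a wild type library the adjusted p of the difference rose to 0.0774 and 0.0743 for Pla2g7 and to 0.0636 and 0.0599 for Ifi44, and for Abcd2 it was 0.0787 to 0.113 without any 1 library.

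Liver function and signalling lists held no called gene. In 27 of the 34 process lists, with 759 entries tested, edgeR called none, while 36 were higher and 36 lower at an unadjusted p under 0.05 and 16 higher and 11 lower by DESeq2. Among 30 inflammatory cytokine and NF-kB target genes 27 had a positive log2 fold change and the median was 0.71. Sele, the endothelial adhesion receptor for leukocytes, was at 8.53 and 12.8 CPM in C57BL/6 and at 26.7 and 69.5 CPM in BALB/c (2.05 ± 0.46, adjusted p = 0.169), and the cytokine Il1b at 8.16 and 14.9 against 15.3 and 133 CPM (2.06 ± 0.59, adjusted p = 0.314). The neutrophil markers were highest in the same BALB/c Ift88Orpk library, and their part here was not tested. Among 36 cytochrome P450 genes 25 had a negative log2 fold change, with a median of -0.50, and hepatocyte markers summed to 2092 and 1435 CPM per kb in C57BL/6 and to 1158 and 1220 in BALB/c. Medians were 0.34 for 40 cell cycle genes, -0.04 for 33 cilium genes, 0.15 for 25 cystic disease genes and 0.27 for 41 matrix genes.

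Loci known from other work to differ between these strains were read as a check of the strain labels. Of 28 such genes tested, Ifi202b and Nlrp1b were called. Nnt, the mitochondrial transhydrogenase that carries a deletion in the C57BL/6J substrain, was at 22.9 and 22.1 CPM in C57BL/6 and at 46.0 and 49.4 CPM in BALB/c (1.08 ± 0.22, adjusted p = 0.134). H2-Ea-ps, the class II chain that the C57BL/6 haplotype does not express, was at 0 in both C57BL/6 libraries and at 5.68 and 35.8 CPM in BALB/c, at least 278-fold higher (adjusted p = 0.102). The class I row H2-Bl was at 0 against 5.12 and 1.46 CPM, at least 42.4-fold higher (adjusted p = 0.206). None of these 3 genes was called.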

How the data were processed

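RNA of sorted liver cells was sequenced, and the deposited table gives raw read counts per gene, which the authors made with HTSeq-count 0.9.1 after demultiplexing with bcl2fastq 2.18.0.12 and alignment with STAR, per the submitters' processing notes, which also name Cufflinks 2.2.1 and GRCm38. Not given in the sources used here are the STAR version, the strand setting of HTSeq-count and the release of its annotation. Of 48795 identifiers 48435 matched GENCODE M21, which gave symbol, class and coordinates, and the 360 others were kept without a class. The 5 summary lines were left out of library sizes: 29.08 to 34.97% of counted reads lay in no feature and 2.64 to 3.95% were ambiguous.

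All 16 libraries entered 1 fit in edgeR 4.0.16 (R 4.3.3) with TMM factors, filterByExpr and the quasi-likelihood test, with a strain and a genotype effect in each population and Benjamini-Hochberg adjustment over 21534 genes at 0.05. SE was derived from F and the log2 fold change. The alternatives were DESeq2 1.42.0, other scaling factors, filters and models, and each library left out. With a library left out, the strain effect rests on the pair of the other genotype, assumed to vary like the other groups. Either library of a genotype left out leaves the same pair. A call kept in only 1 of those fits therefore does not single out a library. Ratios with at most 3 counts in the lower strain carry 95% counting intervals. Transcripts were compared on their own strand with BLAST 2.17.0. Tables were handled in Python 3.11.15 with pandas 2.3.3. The steps were tested on simulated counts. Of simulated strain differences of 1, 1.5, 2 and 3 (log2) in DBA-sorted cells, 0, 18, 44 and 70% were recovered. Genes not called can therefore still differ between strains. Of the 75 calls made in the simulation, 9 were false, a larger share than the threshold of 0.05 aims at. Some of the calls reported here can thus be false. The simulated differences were placed only in genes above a minimum level in DBA-sorted cells, with none in leukocytes. The recovered shares therefore do not cover rows at lower levels. Promoter sequences are from RefSeq (GRCm38.p6).

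The members and the 48 gene lists were chosen with earlier results of these data known. Genes were named by a rule: the 12 protein-coding genes with the largest and the 12 with the smallest log2 fold change, past the threshold, without overlap between strains and with a mean of at least 10 CPM in the higher strain, leaving out predicted genes, receptor segments, mitochondrial, Xist and Y-linked genes. To these came up to 6 pseudogene-like rows by the same thresholds in each direction, up to 6 genes in each direction for the comparison with leukocytes, up to 6 called members of a list, and Ift88, sex-linked and H2 genes as label checks. Every other gene named was chosen after its values were seen.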

Additional observations from a re-analysis of the deposited data

Results flagged for a closer look

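The strain difference in DBA-sorted cells departed from the mean of the 3 leukocyte populations, by a test of that difference, for Pla2g7 (3.77 on the log2 scale), Ifi44 (-4.44) and Abcd2 (-3.92).

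Several cell type sums differed between strains in one direction in wild type and in the other in Ift88Orpk, with 1 library behind each value, and the difference was not tested. The log2 ratio of BALB/c over C57BL/6 was -0.95 in wild type and 0.43 in Ift88Orpk for cholangiocyte markers, and 0.28 and -0.56 for sinusoidal endothelial markers. It was -0.18 and 1.22 for stellate cell and fibroblast markers, -0.91 and 1.47 for Ly6Chi monocyte markers and -1.52 and 3.66 for neutrophil markers. Plasma cell markers gave -0.61 and 0.45, dendritic cell markers 0.16 and -0.36, and megakaryocyte and platelet markers -0.91 and 0.38. Xist gave -2.27 and 1.44.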

How the results depend on the processing

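The 37 genes higher in BALB/c became 231 with DESeq2, 95 with no genotype term, 18 with copies summed and 16 to 42 with a library left out. The 27 lower became 255, 93, 43 with no filter and 9 to 39. The 3 genes that differed from leukocytes became 270 with DESeq2, 23 with no filter and 0 to 13 with a library left out. Protein-coding genes higher, 21, became 155 with DESeq2, 53 with no genotype term, 12 with copies summed and 8 to 27 with a library left out, and those lower, 24, became 161, 62 and 9 to 33. Pseudogene-like genes higher, 12, became 42, 29, 2 with copies summed and 6 to 8. Called list members, 4 higher and 10 lower, became 21 and 32 with DESeq2, 9 and 16 with no genotype term, and 2 to 3 and 4 to 7 with a library left out, and the higher ones 10 in a fit of the 4 DBA-sorted libraries. No direction turned under any alternative run. The cause of these shifts was not tested. Of the 64 calls, 63 were also made by DESeq2, 32 in the fit of the 4 libraries, 20 to 30 with 1 library left out and 15 under each of 12 other settings. Fcer1g, Slc8a1 and Il1r2 were called neither with relative log expression factors nor with upper-quartile factors, and Scimp was not called with the former. Summing copies and leaving out Gm26917 with the mitochondrial genes were chosen after seeing the data, and the latter left both counts at 37 and 27. The genotype term already pairs the libraries of the 2 strains by genotype, and the values with no genotype term above are those without that pairing. With 2 libraries a strain, genes at a few counts per library are the least certain.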
